A study of Mus musculus with 6 samples.

Results

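The Rab GTPases of adult mouse pancreatic acinar cells were examined in 6 RNA sequencing libraries, with attention to Rab6b and to the Rabs of the zymogen granule. Members were taken by gene symbol from the protein-coding genes of the annotation, which gave 59 genes of 55414 in the count tables. The family was singled out because Rab6b was among the genes with the largest differences between the groups in earlier results of these data. For that reason the differences of Rab genes between the groups are given as descriptions, with counts of calls from a fit over all genes beside the share of all genes called, and nothing is tested on the family. The controls were 3 preparations of acinar cells from mice of genotype Pdx1Cre;Trip12+/+, and the knockouts 3 preparations from Pdx1Cre;Trip12fl/fl mice. All 6 thus carried the Cre recombinase under the Pdx1 promoter, which is active in the early pancreatic epithelium, and none was treated. TRIP12 is an E3 ubiquitin ligase. The labels call the replicates biological and do not say whether each came from 1 animal.

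Rab proteins are small GTPases that sit on the membranes of particular organelles. Exchange factors load them with GTP, which lets them recruit motors, tethers and fusion factors, and activating proteins end the cycle by promoting GTP hydrolysis. In the acinar cell, which stores digestive enzymes in zymogen granules, Rab3d, Rab27b and Rab26 are the members best known from granule formation and release. Rab6a acts at the Golgi in nearly all cells, and its paralogue Rab6b is best known from neurons.

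Each library held between 31019500 and 34041901 gene counts. Trip12 (ENSMUSG00000026219, chromosome 1) had 29.0, 22.3 and 26.4 CPM in control libraries 1 to 3 and 14.4, 14.7 and 13.0 CPM in knockout libraries 1 to 3, where CPM is the share of the library's gene counts, scaled to a fixed total after TMM correction. Every knockout library lay below every control library, with a log2 fold change of -0.89 (SE 0.14) and a Benjamini-Hochberg adjusted p of 0.0256 (edgeR quasi-likelihood test). The call was lost without control replicate 2 (adjusted p 0.0676) or 3 (0.0882) and without knockout replicate 1 (0.127), 2 (0.0803) or 3 (0.140). All 12 acinar markers were detected in every library, at summed levels of 501653 to 679159 CPM in the controls and 412730 to 422834 CPM in the knockouts. All 16 islet markers were detected in every library too, at 369 to 484 CPM in the controls and 255 to 948 CPM in the knockouts. Leukocyte markers summed to 180 CPM in control replicate 1, 42.2 and 24.9 CPM in the other controls and 25.7 to 125 CPM in the knockouts. Xist gave 2118 and 2440 counts in the libraries of control replicates 2 and 3, against 3 to 5 in the other 4, so that 1 control and all 3 knockouts had the pattern of males. Counts from a preparation cannot tell fewer cells of a type apart from less RNA per cell.

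Whether counts of the 2 Rab6 paralogues can be kept apart depends on their sequences. The coding sequences of Rab6a and Rab6b, taken from GENCODE transcripts, were both 624 bases long and were identical at 489 of them (78.4%). The longest exact stretch shared by any coding transcript of the pair was 14 bases. The last 120 bases of the coding sequences are positions 505 to 624 from the A of the start codon. They are shown with differing bases in capitals, and within this stretch the pair differed at 31 positions.
Rab6a: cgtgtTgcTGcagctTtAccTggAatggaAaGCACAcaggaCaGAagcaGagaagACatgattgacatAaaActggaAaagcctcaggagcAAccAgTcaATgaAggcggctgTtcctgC
Rab6b: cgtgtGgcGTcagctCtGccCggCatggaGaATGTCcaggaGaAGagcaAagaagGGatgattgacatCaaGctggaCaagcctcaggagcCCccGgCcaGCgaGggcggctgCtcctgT
The first 90 bases, which encode the N terminus and run into the GTP-binding fold, differed at 15 positions.
Rab6a: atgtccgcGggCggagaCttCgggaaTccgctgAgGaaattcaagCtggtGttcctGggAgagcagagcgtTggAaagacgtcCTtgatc
Rab6b: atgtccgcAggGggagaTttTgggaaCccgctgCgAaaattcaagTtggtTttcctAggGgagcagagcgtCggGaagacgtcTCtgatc

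The promoters of the pair, where the starts of transcription lie, are shown as the 250 bases before the start in RefSeq (GRCm38.p6), read 5′ to 3′ on the strand of the gene, both on the plus strand. Capitals mark the E-box CANNTG, the motif class bound by acinar basic helix-loop-helix factors. The motif reads the same on both strands, and 66.2% of 32851 promoter windows of this length hold it.
Rab6b, chr9:103111824-103112073: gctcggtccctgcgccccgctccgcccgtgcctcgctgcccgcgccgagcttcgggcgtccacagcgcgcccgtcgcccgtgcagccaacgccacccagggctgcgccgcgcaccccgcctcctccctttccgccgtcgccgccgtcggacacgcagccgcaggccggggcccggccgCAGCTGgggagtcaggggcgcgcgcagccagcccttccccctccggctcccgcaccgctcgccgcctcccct
Rab6a, chr7:100607336-100607585: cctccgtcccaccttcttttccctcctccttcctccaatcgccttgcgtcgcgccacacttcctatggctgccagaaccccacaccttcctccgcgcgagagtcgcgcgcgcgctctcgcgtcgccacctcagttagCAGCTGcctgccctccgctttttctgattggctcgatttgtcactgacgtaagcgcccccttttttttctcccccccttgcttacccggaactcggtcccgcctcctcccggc
Each window held 1 E-box, in both cases of the form CAGCTG, which 13.0% of all windows hold. GC content was 80.8% for Rab6b and 62.8% for Rab6a, against a median of 52.4% over all windows. The letters CCAAT, on either strand, occurred at 2 places in the Rab6a window, in none in the Rab6b window and in 33.8% of all windows. TATAAA occurred in neither, and in 12.4% of all windows.

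Rab6b was near the detection limit in the controls and was read at 7.93 to 10.4 CPM in the knockouts. It had 6, 1 and 13 counts in control libraries 1 to 3 and 296, 284 and 388 counts in knockout libraries 1 to 3. The single count of control replicate 2 has an exact 95% Poisson interval of 0.0253 to 5.57 counts, which covers counting error only. On the CPM scale it had 0.189, 0.0411 and 0.473 in the controls and 7.93, 8.11 and 10.4 in the knockouts. All 3 knockout libraries thus stood far above all 3 controls, and the lowest knockout value was 16.8 times the highest control value. The mean was 0.234 CPM ± 0.219 (SD, n = 3) in the controls and 8.82 CPM ± 1.38 in the knockouts, a fitted log2 fold change of 5.19 (SE 0.51). The ratio of knockout to control was 42.0 in pair 1, 197 in pair 2 and 22.0 in pair 3 of the numbered replicates. The fold was lowest in the pair whose control had the most counts and highest in the pair whose control had 1.

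Some measures of the libraries separated the groups as Rab6b did, and their part in its difference was not tested. The 12 acinar markers summed lower in all knockouts, and digestive enzyme genes held 76.1% to 78.8% of the gene counts in the controls and 73.5% to 73.9% in the knockouts. TMM factors were 0.785 to 1.02 in the controls and 1.12 to 1.19 in the knockouts. Reads mapping to several places made up 26.0% to 28.4% of all reads in the controls and 21.6% to 24.1% in the knockouts. Total reads were 55316871 to 61002772 in the controls and 49647091 to 53218858 in the knockouts. Marker sums of other cell types overlapped. Control replicate 1, the control with the Xist pattern of the knockouts, had 6 counts, and the lowest knockout library had 42.0 times its CPM. Islet markers were highest in knockout replicate 1, at 948 CPM. They were lowest of all 6 libraries in knockout replicate 3, at 255 CPM, where Rab6b was highest. Of 16 islet markers 13 lay above 0 (median log2 fold change 0.57), as did all 9 stromal and endothelial markers (median 0.40). Of 11 tested leukocyte markers, 6 lay above 0 and 5 below, where 52.4% of all genes lay above. The 5 below were Ptprc, Cd52, Cd74, Cd79a and Coro1a. For every marker of these lists the groups overlapped. With the replicate number as a block, 4 leukocyte markers and 1 islet marker were called higher, where 3.40% of all genes were. The 4 were Adgre1, C1qa, C1qb and C1qc, with log2 fold changes of 0.92 to 2.15 without the block, and the islet marker was Pcsk2. The part of these markers in the Rab6b difference was not tested. The 8 neuronal and Schwann cell markers, of which 3 passed the count filter, summed to 4.25, 2.63 and 4.51 CPM in the controls and 5.04, 4.97 and 4.21 CPM in the knockouts. The sums overlapped between the groups, all 3 tested markers had positive log2 fold changes (median 0.45), and 1 of them did not overlap between the groups. Ductal markers summed to 191 to 232 CPM in the controls and 180 to 282 CPM in the knockouts. Of the 8, 5 did not overlap between the groups, with Spp1 and Ambp higher and Krt19, Muc1 and Cftr lower in all knockouts, where 22.9% of all genes did not overlap. None of the 8 was called without the replicate block, where 0.945% of all genes were called. With it 5 were called, Krt19, Krt7, Spp1, Muc1 and Ambp, where 5.99% of all genes were called. Krt7 overlapped between the groups, and Cftr was not called. The part of the ductal markers in the Rab6b difference was not tested. Spp1 averaged 62.3 CPM in the controls and 131 CPM in the knockouts, and Ambp 5.13 and 16.4 CPM. In the same order, Muc1 averaged 100 and 59.5 CPM, Krt19 16.6 and 9.48 CPM, and Cftr 1.03 and 0.407 CPM. The sums of stromal and endothelial markers were 28.1 to 122 CPM and 34.6 to 141 CPM in the same groups. In the knockouts Rab6b had 140, 146 and 202 counts on one strand orientation and 156, 138 and 186 on the other. Rab3d likewise had 49.6% to 50.8% of its reads on one orientation in all 6 libraries. The split therefore cannot tell the source of the Rab6b reads. No exon of another annotated gene overlaps the exons of Rab6b in GENCODE M21.

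Rab6a, which directs traffic at the Golgi, had 9.70, 12.0 and 10.3 CPM in control libraries 1 to 3 and 8.23, 10.6 and 8.53 CPM in knockout libraries 1 to 3. The groups overlapped, with means of 10.6 CPM ± 1.17 (SD, n = 3) in the controls and 9.13 CPM ± 1.30 in the knockouts and a log2 fold change of -0.22 (SE 0.15). Per kilobase of exon, Rab6b came to 1.75 RPKM ± 0.274 in the knockouts and Rab6a to 2.45 RPKM ± 0.349. Rab6b made up 1.91%, 0.343% and 4.39% of the reads of the pair in the controls (exact Clopper-Pearson 95% intervals 0.704% to 4.11%, 0.00867% to 1.89% and 2.36% to 7.39%). In the knockout libraries it made up 49.1%, 43.3% and 55.0% (45.0% to 53.2%, 39.5% to 47.2% and 51.2% to 58.7%). The level of the pair together was 2.64, 3.21 and 2.85 RPKM in the controls and 3.78, 4.46 and 4.36 RPKM in the knockouts. Rab6a exons overlap Mrpl48 on the opposite strand, and reads there are left out of the strand-blind counts. The 2 strand columns together held 1.30 times as many Rab6a reads, part of which can belong to Mrpl48. With them the Rab6b share was 1.55%, 0.297% and 3.28% in the controls and 41.5%, 36.7% and 47.1% in the knockouts.

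**Figure D1:**
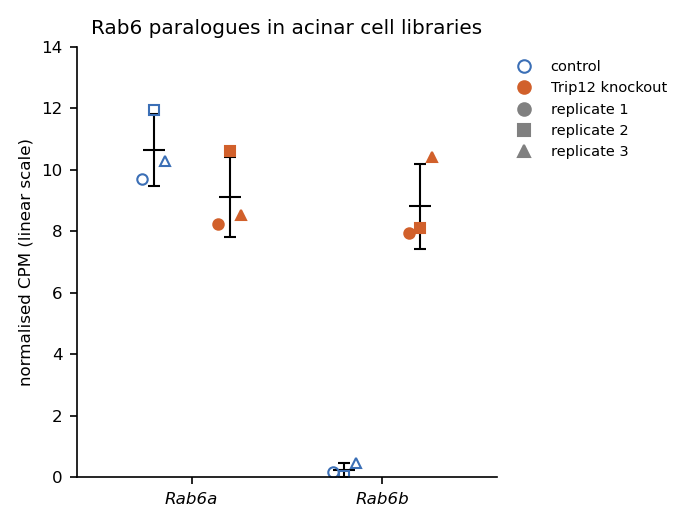
Normalised CPM (linear scale) of Rab6a and Rab6b in each of the 6 libraries. Open blue symbols are controls, filled orange symbols Trip12 knockouts, symbol shape is the replicate number, and black bars are the mean ± SD of 3 libraries. Rab6a overlaps between the groups around 10 CPM, and Rab6b lies at most at 0.473 CPM in the controls and at least at 7.93 CPM in the knockouts.

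The Rabs of secretory granules spanned the whole range of levels. Per kilobase of exon, Rab3d ranked 2nd and Rab26 7th of the 59 members in the controls, and Rab37, Rab3b and Rab3c ranked 45th, 54th and 58th. Of the 8, 6 passed the count filter and none was called, where 0.945% of all genes were called. Of these 6, 1 had a fitted log2 fold change above 0 and 5 below 0, where 52.4% of all genes lay above and 47.6% below. Their median was -0.14 against 0.02 over all genes tested, and 0.29 against 0.43 when scaled by library totals, so the direction depends on the scaling. Together they held 26.4%, 27.3% and 28.8% of the summed Rab CPM in control libraries 1 to 3 and 26.2%, 29.3% and 25.9% in knockout libraries 1 to 3.

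Rab3d, the main Rab3 form on zymogen granules, had 125, 142 and 149 CPM in the controls and 124, 136 and 129 CPM in the knockouts. The groups overlapped, and with a log2 fold change of -0.10 (SE 0.14) Rab3d carried more CPM than any other Rab gene in both groups. Rab26, a Rab of maturing granules and a known target of the acinar factor Mist1, had 17.9, 28.5 and 26.9 CPM in the controls and 21.3, 33.5 and 17.4 CPM in the knockouts. Its libraries were as far apart within each group as between them, and the log2 fold change was -0.02 (SE 0.28). The gene for Mist1, Bhlha15, averaged 224 CPM in the controls and 165 CPM in the knockouts, with overlap between the groups and a log2 fold change of -0.44 (SE 0.20).

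Rab27b, which acts in zymogen granule release, had 24.4, 26.1 and 29.1 CPM in the controls and 17.5, 22.1 and 21.6 CPM in the knockouts. It was the only granule Rab among the 6 tested whose groups did not overlap, where 10.9% of all genes were lower without overlap, at a log2 fold change of -0.38 (SE 0.14). Its paralogue Rab27a, better known from lysosome-related organelles and endocrine granules, had 15.3, 18.0 and 18.8 CPM in the controls and 13.5, 15.5 and 14.8 CPM in the knockouts. There the highest knockout value lay just above the lowest control value (log2 fold change -0.25, SE 0.13).

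Among the forms known from neurons and endocrine cells, Rab3a had 4.54, 6.74 and 8.62 CPM in the controls and 5.41, 5.71 and 6.44 CPM in the knockouts. The knockout values fell inside the range of the controls (log2 fold change -0.18, SE 0.23). Rab37, known from mast cell and endocrine granules, had 36, 9 and 8 counts in the controls and 39, 25 and 10 in the knockouts, for a log2 fold change of 0.16 (SE 0.69). That became 1.00 without control replicate 1, -0.30 without knockout replicate 1 and -0.74 with the sex term. The value was highest in both groups in the replicate numbered 1, which also had the highest leukocyte marker sum of its group, and the part of that in the Rab37 counts was not tested. Rab3b had at most 5 and Rab3c at most 7 counts in any library, and neither was tested.

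Levels were compared between genes per kilobase of exon, in the control libraries. 5 members exceeded 10 RPKM, 25 lay between 1 and 10 RPKM, and 29 lay below 1 RPKM. With the union of exons as length, Rab2a, which acts between the endoplasmic reticulum and the Golgi, was highest at 38.9 RPKM ± 3.07 (SD, n = 3), followed by Rab3d at 33.1 ± 2.91. Rab1a, which carries vesicles from the endoplasmic reticulum to the Golgi, stood at 24.9 ± 2.47 and Rab7, the Rab of late endosomes and lysosomes, at 23.1 ± 3.39. Rab1b followed at 11.2 RPKM ± 1.02, Rab5c of early endosomes at 8.59 ± 0.364, Rab26 at 8.57 ± 2.00 and Rab10, which acts in delivery to the plasma membrane, at 7.97 ± 1.07. The 4 highest members held 48.3% of the mean summed Rab CPM of the controls.

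Few neighbours in this order were set apart by the spread of the controls. In 53 of 58 neighbouring pairs the 3 control values overlapped, Rab2a with Rab3d and Rab1a with Rab7 among them. The 5 pairs that did not overlap were Rab3d above Rab1a, Rab7 above Rab1b, Rab1b above Rab5c, Rab10 above Rab25 and Rab21 above Rab22a. Rab6b was 50th of 59 in the controls and 26th in the knockouts, and the members ranked 1 to 6 in the controls held the same ranks in the knockouts. With the mean length of coding transcripts in place of the union of exons, 7 of the 8 highest stayed among the 8 highest, and Rab14, whose annotated exons add up to 13589 bases, took the place of Rab10. The order changed among the highest members, to Rab3d, Rab7, Rab1a and then Rab2a.

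**Figure D2:**
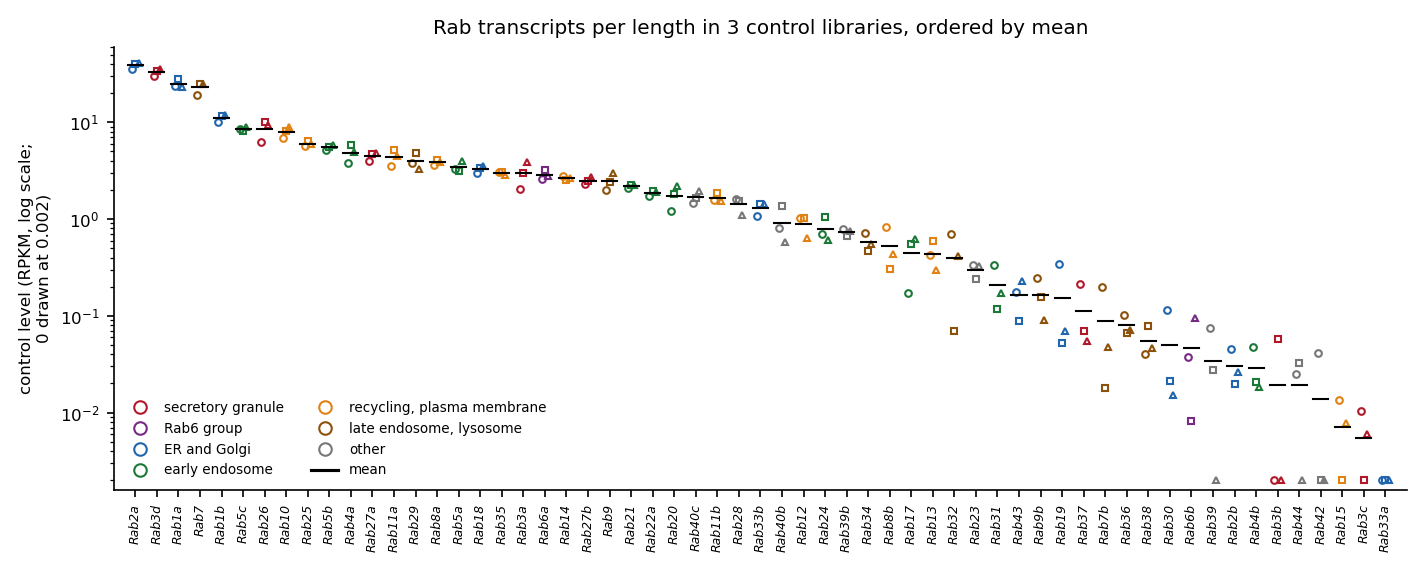
Level of each of the 59 Rab genes per kilobase of exon (RPKM, log scale) in the 3 control libraries, ordered by mean. Symbols are single libraries (circle, square and triangle for replicates 1 to 3), coloured by role, black lines are means, and values of 0 are drawn at 0.002. Rab2a and Rab3d lead at 38.9 and 33.1 RPKM, and Rab6b is 50th.

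Across the whole family, 48 of the 59 members passed the count filter and 11 did not. Of the 48, 1 was called, Rab6b, in a fit in which 0.945% of all 13115 genes were called. The other 47 had log2 fold changes from -1.20 to 1.30 with a median of -0.10, 38 of them within 0.5 of 0. Of these 47, 17 lay above 0 and 30 below, where 52.4% of all genes lay above and 47.6% below, and 7 had an unadjusted p under 0.05 where 16.7% of all genes did. With the replicate number as a block, the fit called Rab6b alone among the members and 5.99% of all genes. Rab6b itself was not called without knockout replicate 3 (log2 fold change 5.05, 0.175% of all genes called) or with a term for sex (5.52, 0.160% called). Scaling by library totals alone, without TMM, gave a median log2 fold change of 0.43 over all genes and 0.32 over all 48, and 7 members were called higher, where 11.7% of all genes were called. Under that scaling 25 of the 30 members below 0 came to lie above 0, so the lower values of these members depend on the scaling. Among them were Rab1a, Rab2a, Rab3a, Rab3d, Rab6a, Rab7, Rab14, Rab18, Rab26, Rab27a and Rab27b. With the term for sex, the median of the 47 members beside Rab6b was -0.001, where that of all genes was 0.001.

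Groups did not overlap in 10 of the 48 members, 3 higher and 7 lower in the knockouts, where 22.9% of all genes did not overlap, 12.0% higher and 10.9% lower. The higher ones beside Rab6b were Rab5c and Rab40c. Rab5c, of early endosome fusion, averaged 18.9 CPM ± 0.799 in the controls and 21.2 CPM ± 1.07 in the knockouts (SD, n = 3), and Rab40c, one of the Rabs with a SOCS box that binds a cullin ubiquitin ligase, 5.19 ± 0.708 and 6.83 ± 0.212. The lower ones were Rab1a, Rab7, Rab14, Rab18, Rab27b, Rab39b and Rab40b. Rab40c, Rab14 and Rab18 are named here after their values were seen.

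**Figure D3:**
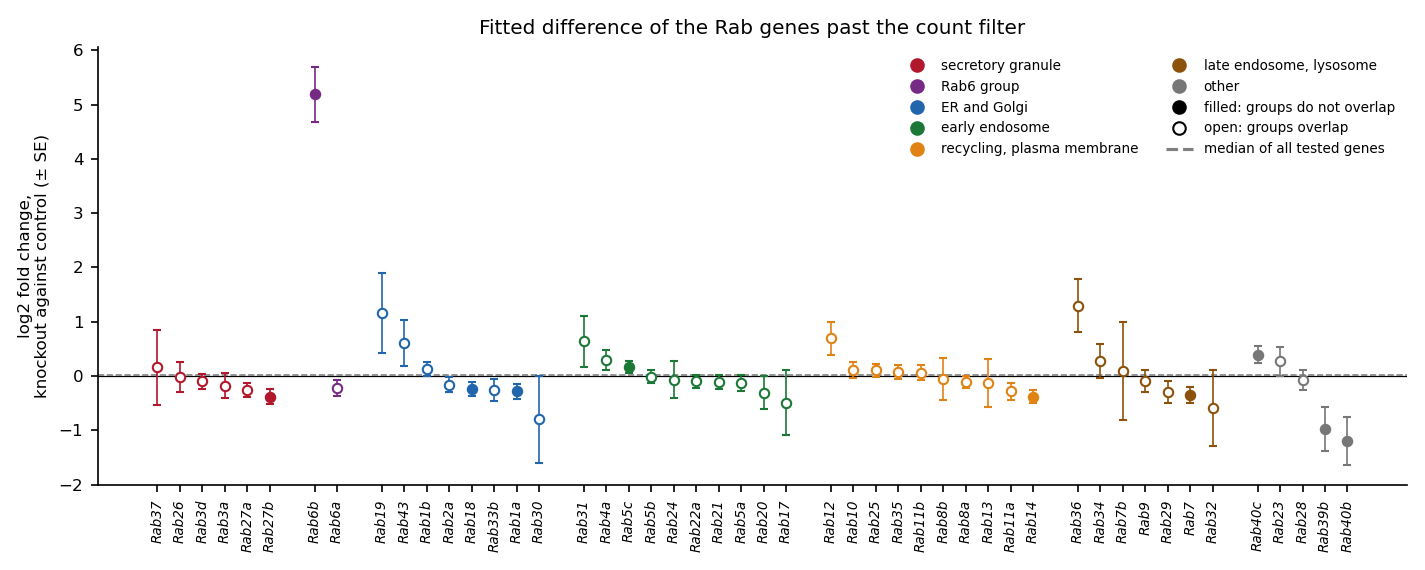
Fitted log2 fold change, knockout against control, of the 48 Rab genes past the count filter, grouped and coloured by role, with bars of 1 SE. Filled symbols are genes whose 3 control and 3 knockout values do not overlap, and the dashed line is the median of all genes tested, 0.02. Rab6b stands at 5.19 and the other 47 lie between -1.20 and 1.30.

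Rabs of the endoplasmic reticulum and Golgi made up the largest share of the pool on average. They held 28.8% to 30.4% of summed Rab CPM in the controls and 28.0% to 29.3% in the knockouts. Of 10, 8 were tested, with 3 above 0, 5 below and a median of -0.20. Rab1a had 90.4, 105 and 88.2 CPM in the controls and 71.8, 78.7 and 82.8 CPM in the knockouts (log2 fold change -0.28, SE 0.14), with every knockout below every control. Rab2a overlapped between the groups, at 82.9 CPM ± 6.54 (SD, n = 3) and 74.3 CPM ± 4.66. Rab1b averaged 25.5 CPM ± 2.31 in the controls and 27.9 CPM ± 1.32 in the knockouts, and there too the groups overlapped.

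The most variable members of this role were rare ones. Rab30, a Golgi Rab, had 35, 5 and 4 counts in the controls and 10, 7 and 14 in the knockouts. Its log2 fold change of -0.80 (SE 0.80) turned to 0.65 without control replicate 1. Rab19 had 17, 2 and 3 counts in the controls and 28, 18 and 16 in the knockouts, for a log2 fold change of 1.17 (SE 0.74) that became 2.49 without the same library. Control replicate 1 was thus the high control for both genes, and it was also the control with the most leukocyte marker reads. The part of leukocytes in these counts was not tested.

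Early endosome Rabs held 12.3% to 13.0% of summed Rab CPM in the controls and 13.5% to 14.3% in the knockouts, without overlap. Of 11, 10 were tested, 3 above 0 and 7 below, with a median of -0.08. Rab31, which carries cargo between the Golgi and endosomes, had 1.29, 0.452 and 0.654 CPM in the controls and 1.55, 0.971 and 1.23 CPM in the knockouts (log2 fold change 0.64, SE 0.47). Rab17, a Rab of polarised epithelia, had 0.346, 1.11 and 1.24 CPM in the controls and 0.536, 0.371 and 0.992 CPM in the knockouts (log2 fold change -0.49, SE 0.60). Both genes overlapped between the groups. With a term for sex, read from Xist, the values became -0.04 and 0.86.

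Recycling and plasma membrane Rabs held 16.2% to 17.5% of summed Rab CPM in the controls and 16.0% to 17.7% in the knockouts. Of 11, 10 were tested, 5 on each side of 0, with a median of 0.01. Rab14, which acts between the Golgi and endosomes had 38.1, 34.1 and 35.8 CPM in the controls and 26.4, 27.1 and 29.4 CPM in the knockouts. The groups did not overlap (log2 fold change -0.38, SE 0.12), and DESeq2's Wald test called it, with 4.53% of all genes. Scaled by library totals, Rab14 had a log2 fold change of 0.02 and was not called. Rab10 averaged 28.0 CPM ± 3.74 in the controls and 30.1 CPM ± 3.54 in the knockouts (SD, n = 3). Rab12, which sends receptors from recycling endosomes to lysosomes, had 3.09, 3.12 and 1.93 CPM in the controls and 5.74, 2.77 and 4.67 CPM in the knockouts. Knockout replicate 2 lay among the controls (log2 fold change 0.70, SE 0.31).

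Late endosome and lysosome Rabs held 9.07% to 9.75% of summed Rab CPM in the controls and 8.23% to 8.60% in the knockouts, without overlap. Of 9, 7 were tested, 3 above 0 and 4 below, with a median of -0.09. Most of that share was Rab7, at 50.0, 65.2 and 65.5 CPM in the controls and 48.0, 47.6 and 46.4 CPM in the knockouts. Every knockout lay below every control (log2 fold change -0.35, SE 0.15). On this scale control replicate 1, the only control with the male Xist pattern, lay much nearer to the knockouts than to the other controls. Its TMM factor was 1.02, against 0.79 and 0.81 in the other controls and 1.12 to 1.19 in the knockouts. The log2 fold change of Rab7 was -0.08 with a term for sex and 0.08 scaled by library totals. The part of sex in the Rab7 difference was not tested.

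Rab36, linked to the Golgi and late endosomes, had the largest positive value after Rab6b, at 0.630, 0.411 and 0.436 CPM in the controls and 1.50, 0.628 and 1.53 CPM in the knockouts. Knockout replicate 2 lay within the controls (log2 fold change 1.30, SE 0.49). Rab32, a Rab of melanosomes and mitochondria, had 52, 4 and 27 counts in the controls and 31, 20 and 17 in the knockouts. Its log2 fold change of -0.59 (SE 0.70) became 0.08 without control replicate 1. Rab9b, named after its values were seen, had 31, 15 and 10 counts in the controls and 1, 9 and 3 in the knockouts, too few to pass the filter.

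Of the 8 remaining members, 5 were tested, 2 above 0 and 3 below. Rab40b, a SOCS box Rab like Rab40c, had 51, 67 and 32 counts in the controls and 34, 34 and 19 in the knockouts. On the normalised scale these were 1.61, 2.75 and 1.16 CPM against 0.911, 0.971 and 0.510 CPM, the lowest fitted value of the family (log2 fold change -1.20, SE 0.45). Rab39b, best known from neurons, had 2.68, 2.26 and 2.54 CPM in the controls and 0.563, 1.54 and 1.69 CPM in the knockouts (log2 fold change -0.98, SE 0.41). Every knockout lay below every control for both genes. The paralogue Rab40c had a log2 fold change of 0.40 (SE 0.16), and Rab39 had at most 7 counts in any library and was not tested.

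**Figure D4:**
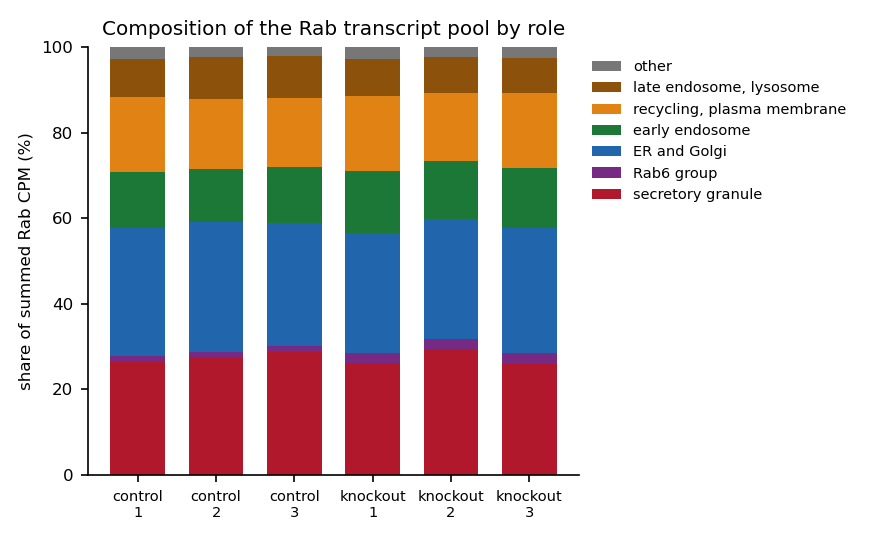
Share of the summed Rab CPM (%, from 0) held by each role in each library, as stacked bars. Granule Rabs hold 25.9% to 29.3% in all 6 libraries, and the Rab6 group holds 1.33% to 1.48% in the controls and 2.31% to 2.59% in the knockouts.

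The 11 members outside the test are not shown to be silent. Of the 59, 10 had at most 10 counts in every library, and 2 of these at most 3. Rab33a had 0 counts in all controls and 1, 4 and 2 in the knockouts. Rab2b, which overlaps Tox4 on the opposite strand, had 35 strand-blind counts over all libraries and 199 in the 2 strand columns together. For Rab24, which passed the filter and overlaps Prelid1 in the same way, these were 298 and 1932. The kit is not stated to mark strand, so the added reads cannot be told apart from those of the partner gene. Rab4b, outside the test, had 14 counts over all libraries and overlaps the protein-coding Gm21983 on the same strand. Reads in such an overlap can be left out of every column.

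Genes that act with the Rabs were read in 4 lists: regulators and effectors of Rab6, those of the granule Rabs, the general Rab cycle, and granule exocytosis. None of their tested members was called without the block. At an unadjusted p under 0.05 there were 4 of 17 for Rab6, 3 of 19 for granule Rabs, 2 of 8 for the general cycle and 4 of 16 for exocytosis, where the share over all genes was 16.7%. With the replicate block, edgeR called 1 higher and 1 lower for Rab6 and 1 lower in each of the other lists, where 3.40% of all genes were called higher and 2.58% lower. DESeq2's Wald test called 6 over the lists, all lower, with 4.53% of all genes. Scaled by library totals, edgeR called 7, all higher, with 11.7% of all genes. Over the further settings, the share of all genes called was 0.900% with median-of-ratios factors, 0.923% with enzymes left out of scaling, 3.30% without a filter, 1.89% with at least 10 counts everywhere, 0.640% in limma-voom, and 1.31% and 1.15% in the single strand columns. It was 3.41%, 0.143% and 0.389% without control replicate 1, 2 or 3 and 0.202% and 0.640% without knockout replicate 1 or 2. Without the block 0.465% of all genes were called higher and 0.480% lower. The median log2 fold changes of the 4 lists, in the order above, were -0.07, -0.01, -0.22 and -0.09, and by library totals 0.33, 0.37, 0.18 and 0.32, so their direction depends on the scaling.

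The 5 genes called with the block, a pairing chosen from the same data, included 2 partners of Rab6. Dennd5a, a DENN domain protein that binds Rab6, averaged 8.64 CPM ± 1.67 in the controls and 12.4 CPM ± 1.46 in the knockouts (SD, n = 3). All 3 knockouts lay above the controls, with a log2 fold change of 0.52 (SE 0.17) and a Benjamini-Hochberg adjusted p of 0.181 (edgeR quasi-likelihood test), or 0.0464 with the block. Kif1c, a kinesin that binds Rab6 at the Golgi, averaged 36.6 CPM ± 6.05 and 25.0 CPM ± 1.50, with adjusted p of 0.131 and 0.0473 in the same edgeR fits. Scaled by library totals, the log2 fold change of Kif1c moved from -0.55 to -0.12, and that of Dennd5a from 0.52 to 0.91. Ric1 and Rgp1, the 2 parts of the exchange factor of Rab6, had log2 fold changes of 0.37 (SE 0.19) and 0.39 (SE 0.12). Neither was called with or without the block.

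The other 3 belonged to the granule and to the Rab cycle. Rims1, a scaffold of vesicle release that binds GTP-loaded Rab3, had 84, 52 and 38 counts in the controls and 10, 24 and 13 in the knockouts. All knockouts lay below all controls (2.05 CPM ± 0.636 and 0.434 CPM ± 0.221, SD, n = 3), with a log2 fold change of -2.24 (SE 0.48) and adjusted p of 0.0685 without and 0.0110 with the block in edgeR. Gp2, the main glycoprotein of the zymogen granule membrane, averaged 6987 CPM ± 1209 in the controls and 3315 CPM ± 888 in the knockouts, with adjusted p of 0.0698 and 0.00919 in the same edgeR fits. Rabac1, which binds lipid-modified Rabs at the Golgi, averaged 136 CPM ± 26.1 and 86.1 CPM ± 12.1, with 0.142 and 0.0489. Scaled by library totals, the log2 fold change of Rabac1 moved from -0.66 to -0.22, and that of Rims1 from -2.24 to -1.87. Of 12 acinar markers tested, 11 lay below 0, where 47.6% of all genes did. Their median was -0.47, where Gp2 had a log2 fold change of -1.08. By library totals the median was -0.03, and Gp2 stayed at -0.64. The marker above 0 was Rbpjl, at means of 214 CPM in the controls and 505 CPM in the knockouts, without overlap. Its log2 fold change was 1.24, or 1.66 by library totals. The part of the acinar markers in the Gp2 difference was not tested.

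**Figure D5:**
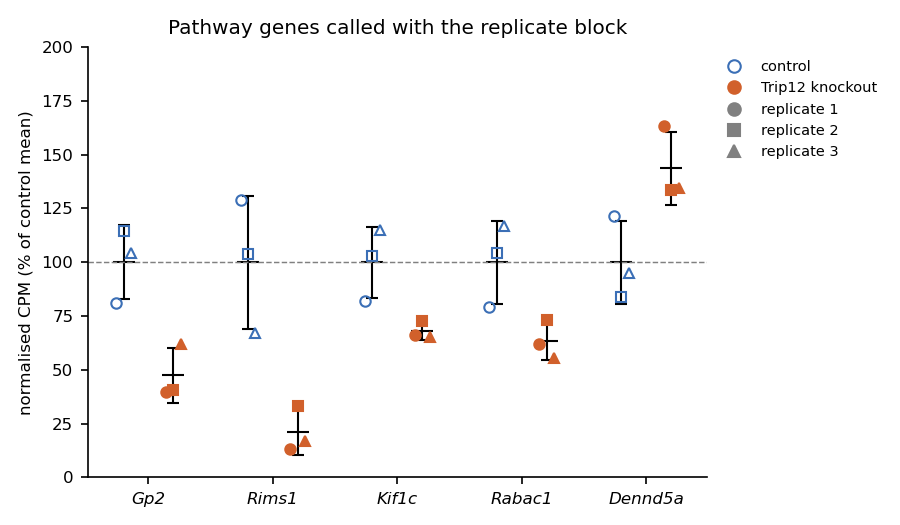
Normalised CPM as a percentage of the control mean for the 5 pathway genes called in the fit with the replicate block, in each library. Open blue symbols are controls, filled orange symbols knockouts, shapes are replicate numbers, black bars are mean ± SD, and the dashed line is the control mean. Gp2, Rims1, Kif1c and Rabac1 lie below all controls in every knockout, and Dennd5a above.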

How the data were processed

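The authors deposited raw whole-number counts per gene, in a column blind to strand and a column for either orientation, per the file layout. The submitters' processing notes name STAR 2.7.10a and the builds GRCm39 and mm39. The annotation behind the counts is not given in the sources used here. The 4 rows outside genes stayed out of library sizes and tests. Symbols, exonic lengths and overlaps came from GENCODE M21 (GRCm38), which held 94.1% of the 55414 identifiers, so gene models may differ from the authors'. Promoter windows came from RefSeq (GRCm38.p6), which matched 48 of 59 members.

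Libraries of 1 group differed well beyond counting noise (chi-square per degree of freedom from 26.3 to 49.5), so each counted as 1 sample. Whether replicates are separate animals is not stated, and p-values measure the spread between these preparations only. edgeR 4.0.16 in R 4.3.3 was fitted to all genes passing filterByExpr (13115) with TMM factors, a robust quasi-likelihood fit and Benjamini-Hochberg adjustment, with a call at an adjusted p under 0.05. SE was the log2 fold change over the root of F. DESeq2 1.42.0 and limma 3.58.1 were alternatives. RPKM was computed here from normalised CPM and the union of exons. Same-numbered replicates deviated together from their group means, with correlations of 0.63, 0.455 and 0.285 across genes. Other pairs gave -0.496 to 0.21, so the numbers were taken to pair the samples. The labels state no such pairing, and the lowest same-number value, 0.285, was close to 0.21. The block was thus chosen from the data it was fitted to, so p-values with the block can be too small.

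The members, the lists and the alternatives were chosen with earlier results of these data known. The enzyme list of 1 scaling alternative was written after the files were read. Under the alternatives, Rab members are treated as values with no test; this was set after a first version by test had shown many sign changes of values near 0, whose number is given under the limits. Named were Trip12, all granule and Rab6 members, called members, the 8 highest in control, the 5 largest differences each way, and up to 5 called genes of the pathway lists. Pathway lists held 18, 22, 8 and 17 genes, of which Tbc1d11 had no match.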

Additional observations from a re-analysis of the deposited data

How the results depend on the processing

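The number of Rab members called (1, Rab6b) was 7 with library totals, 2 with DESeq2's Wald test (Rab6b and Rab14), 0 with the sex term and 0 with a minimum of 10 counts in all 6 libraries, a filter that removes Rab6b by its control counts. It was 0 to 1 when single libraries were left out and 1 with the replicate block and the other settings. Rab6b had a log2 fold change from 4.75 to 6.12 when single libraries were left out. The number of pathway genes called (0) was 5 with the replicate block, 7 (all higher) with library totals, 4 without a filter, 2 with at least 10 counts, 6 with DESeq2's Wald test, 1 and 2 with single strand columns, and 0 to 5 when single libraries were left out, the highest being without control replicate 1. Trip12 had a log2 fold change of -0.49 with library totals, -1.05 with the sex term and -0.98 to -0.82 with single libraries left out, and was not called in the first 2. Of the 22 other named Rab members, 9 changed sign with library totals and 6 with the sex term. In the single strand columns 2 of 18 and 1 of 21 fitted members did, and 0 to 3 when single libraries were left out. Except where the construction of an alternative shows it, the cause was not tested. With the block no other call on the Rab members or Trip12 changed. The 8 members highest in the controls remained so with library totals and with any control left out. Lengths from RefSeq proteins were not run, and transcript lengths were chosen in their place after seeing the data. With 3 libraries a group and 1 male control, sex and genotype are partly confounded. Few control counts limit the fold of Rab6b.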
